A study of Mus musculus with 4 samples.

Results

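The genes described here are 34 genes of transforming growth factor beta (TGF-beta) and bone morphogenetic protein (BMP) signalling, taken by name from a list of ligands, receptors, SMAD proteins, regulators and targets, out of 21887 protein-coding genes. Their open chromatin was read from 4 ATAC-seq libraries of haematopoietic stem cells (HSCs) sorted from the marrow of male C57BL/6 mice, wild type and 8 weeks old. There were 2 libraries of CD93+ (surface CD93 present) and 2 of CD93- (absent) HSCs. No treatment is given for any of them, and all 4 came from the same gate, which was lineage-negative, Sca-1-positive, Kit-positive, CD34-negative, CD48-negative, Flt3-negative and Slam1-positive, and the fractions differed by surface CD93. Separate mice are not stated for the replicates of a fraction, so their spread may be technical.

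ATAC-seq finds open chromatin by where the Tn5 transposase can cut, and each deposited list gives the summits of the regions called open in 1 library. A summit carries a score, a p or q value on a −log10 scale against that library's own background, so scores rank sites within a list and are not scaled between lists. CD93+ replicate 1 listed 21 summits, CD93- replicate 1 listed 7989 and CD93- replicate 2 listed 2755. The list of CD93+ replicate 2 was 8.90% as long as the longest. Read depth is unknown. A gene-end summit here lies within 1000 bp of either end of a gene. Of 10 genes of the HSC gate and HSC identity, Flt3 alone, a marker that the gate selects against, had a gene-end summit. It was listed in CD93- replicate 1, where 32.2% of all protein-coding genes were. None of 5 megakaryocyte, 6 endothelial or 4 stromal markers had a gene-end summit in any list, as was so for 67.6% of all protein-coding genes. The rest of the 10 genes were thus absent as well, both Kit, Slamf1, Procr and Mecom and the gate-negative Cd34 and Cd48. The cell type cannot be read from these lists.

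TGF-beta ligands bind a pair of type II receptors that recruit and phosphorylate type I receptors, which then phosphorylate SMAD2 and SMAD3. BMP ligands work in the same way through other type I receptors and SMAD1, SMAD5 and SMAD9, and both branches share the partner SMAD4. TGF-beta is made in the marrow in latent form and is known as a signal that keeps HSCs out of the cell cycle, while the ID proteins are classical targets of BMP and TGF-beta signalling.

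The sequences that follow show where summits fell at the starts of these genes, from RefSeq on GRCm38.p6, the assembly behind mm10. Each runs 5′ to 3′ on the gene's own strand, from 250 bases before the annotated start to 50 after. Capitals mark matches to the motifs searched. Tgfbr1 encodes the type I receptor of TGF-beta and was listed in 3 libraries, and Acvr1b, an activin type I receptor, was listed in CD93- replicate 1. Bmpr1a, a BMP type I receptor, had no summit in any list. The windows are chr4:47352972-47353271 (plus strand), chr15:101173822-101174121 (plus strand) and chr14:34502497-34502796 (minus strand).
Tgfbr1: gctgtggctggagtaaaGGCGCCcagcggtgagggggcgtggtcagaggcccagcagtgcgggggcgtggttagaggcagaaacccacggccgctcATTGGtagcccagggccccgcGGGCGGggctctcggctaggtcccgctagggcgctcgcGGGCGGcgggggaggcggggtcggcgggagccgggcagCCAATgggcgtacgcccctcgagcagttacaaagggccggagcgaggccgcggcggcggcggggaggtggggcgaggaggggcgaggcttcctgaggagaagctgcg
Acvr1b: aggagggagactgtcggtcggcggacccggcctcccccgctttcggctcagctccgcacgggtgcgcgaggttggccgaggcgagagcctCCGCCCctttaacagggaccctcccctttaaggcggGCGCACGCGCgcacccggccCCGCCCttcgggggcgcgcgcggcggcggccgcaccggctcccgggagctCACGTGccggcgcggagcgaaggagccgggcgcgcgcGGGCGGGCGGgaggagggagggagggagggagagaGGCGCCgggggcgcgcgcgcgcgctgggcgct
Bmpr1a: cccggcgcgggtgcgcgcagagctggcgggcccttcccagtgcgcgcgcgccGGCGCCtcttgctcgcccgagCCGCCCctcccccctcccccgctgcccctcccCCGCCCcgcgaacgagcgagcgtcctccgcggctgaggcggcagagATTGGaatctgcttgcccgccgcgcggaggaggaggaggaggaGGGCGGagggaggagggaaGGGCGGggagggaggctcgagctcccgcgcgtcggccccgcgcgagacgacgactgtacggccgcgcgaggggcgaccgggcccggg

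Smurf2, a ubiquitin ligase that targets receptors and SMADs, and Id2, an inhibitor of bHLH transcription factors, were listed in CD93- replicate 1. Id3, a close relative of Id2, was listed nowhere. Their windows are chr11:106920666-106920965 (minus strand), chr12:25096043-25096342 (minus strand) and chr4:136143572-136143871 (plus strand).
Smurf2: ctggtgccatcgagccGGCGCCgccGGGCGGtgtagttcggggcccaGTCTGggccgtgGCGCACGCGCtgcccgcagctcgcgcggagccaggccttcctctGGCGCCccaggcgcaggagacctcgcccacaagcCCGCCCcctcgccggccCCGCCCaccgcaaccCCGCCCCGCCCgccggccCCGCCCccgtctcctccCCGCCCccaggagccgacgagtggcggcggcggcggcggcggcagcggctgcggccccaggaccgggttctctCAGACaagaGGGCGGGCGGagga
Id2: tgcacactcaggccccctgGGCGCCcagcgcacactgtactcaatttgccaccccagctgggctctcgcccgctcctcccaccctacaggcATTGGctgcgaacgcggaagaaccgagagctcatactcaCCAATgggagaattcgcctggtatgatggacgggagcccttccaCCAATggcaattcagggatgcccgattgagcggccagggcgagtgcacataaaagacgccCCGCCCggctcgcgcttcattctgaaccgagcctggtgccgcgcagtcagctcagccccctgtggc
Id3: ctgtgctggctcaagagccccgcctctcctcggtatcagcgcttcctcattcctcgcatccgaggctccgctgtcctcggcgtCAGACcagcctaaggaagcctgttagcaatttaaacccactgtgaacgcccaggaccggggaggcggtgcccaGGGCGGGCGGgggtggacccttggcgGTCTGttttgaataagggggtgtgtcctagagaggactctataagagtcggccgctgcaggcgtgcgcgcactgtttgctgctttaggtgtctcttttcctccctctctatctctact

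Open sites at the ends of these pathway genes were listed mostly in CD93- replicate 1. Gene-end summits were found at 0 and 2 of 34 genes in CD93+ replicates 1 and 2, and at 13 and 4 of 34 in CD93- replicates 1 and 2. Over all protein-coding genes the same rule called 0.0183% and 3.22% in CD93+ replicates 1 and 2, and 32.2% and 12.9% in CD93- replicates 1 and 2. The pathway shares were 0% and 5.88% in the CD93+ libraries, and 38.2% and 11.8% in the CD93- ones. The pathway shares thus lay near those of all genes in each library.

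The counts of the groups did not overlap, with a mean of 1 ± 1.41 genes (SD, n = 2) in CD93+ libraries and 8.5 ± 6.36 (SD, n = 2) in CD93- libraries. Nor did the shares of all genes called overlap. They were 0.0183% and 3.22% in CD93+ replicates 1 and 2, and 32.2% and 12.9% in CD93- replicates 1 and 2. The difference of -7.5 genes was -3 without CD93- replicate 1 and -12 without CD93- replicate 2. It was 0 when the longer lists were reduced to their highest-scoring summits, as many as CD93+ replicate 2 listed. No p is given for this count, and an exact permutation test of 2 libraries against 2 cannot go below a two-sided p of 0.333. Because the cells were assayed in bulk, a site open in fewer cells and a site less open in each cell cannot be told apart. List length moved with CD93 status, and its part in the difference cannot be told apart from that of the fraction.

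**Figure D1:**
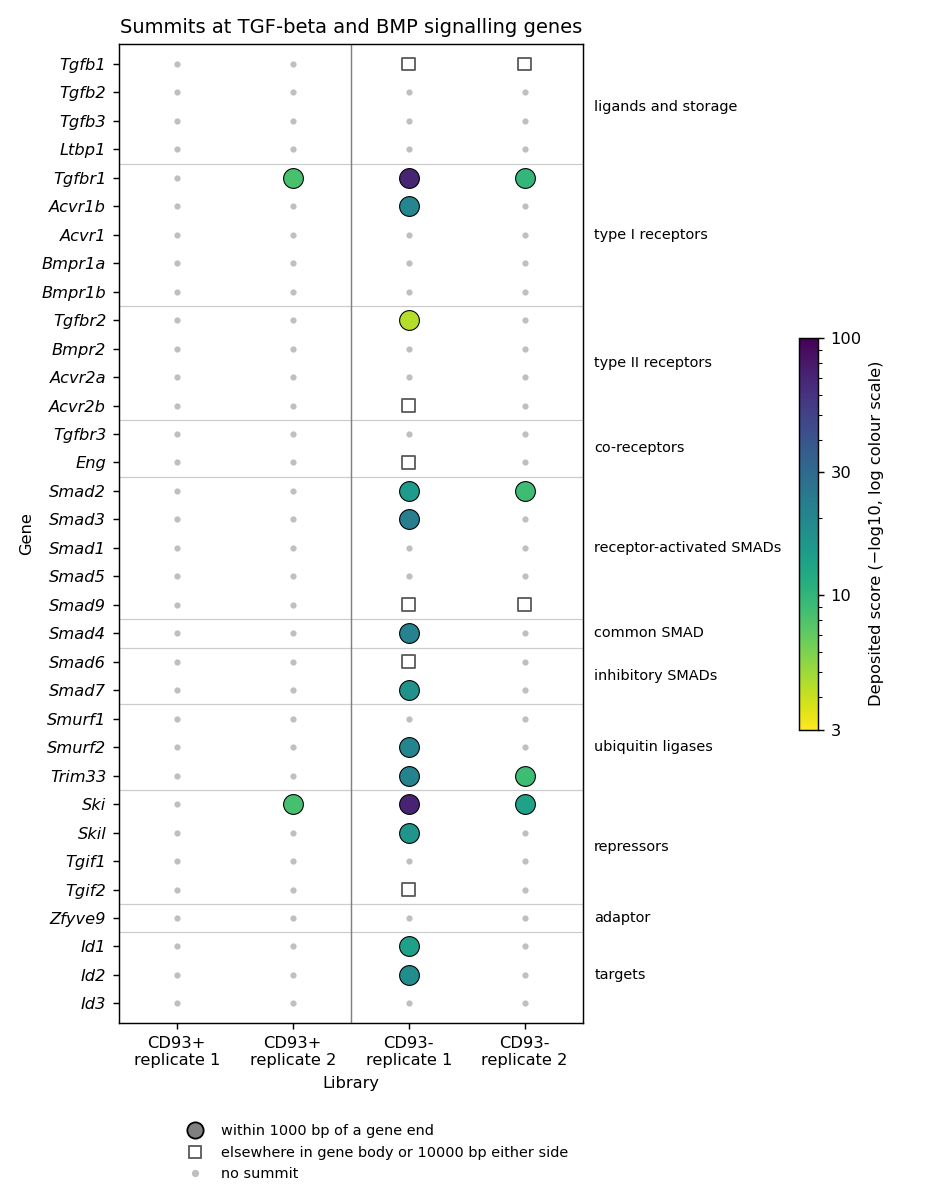
Each row is a gene, grouped by role, and each column a library. Filled circles are gene-end summits coloured by score, open squares are summits elsewhere in the gene body or within 10000 bp of it, and dots mark no summit. Tgfbr1 and Ski have circles in 3 columns, and 13 genes have a circle in CD93- replicate 1.

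**Figure D2:**
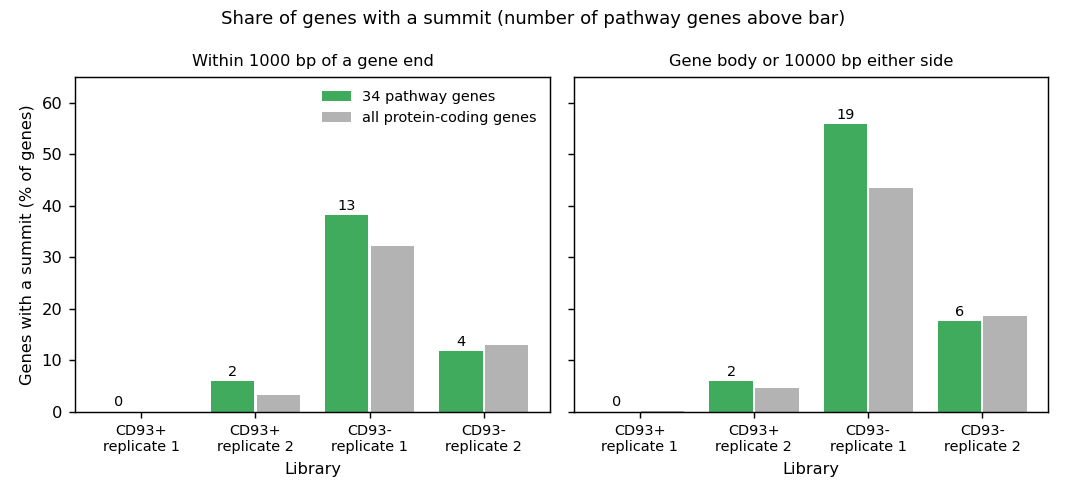
Bars give the percentage of genes with a summit in each library, for the 34 pathway genes (green, with their number above) and for all protein-coding genes (grey), at gene ends (left) and in the wider window (right). In CD93- replicate 1, 38.2% of pathway genes and 32.2% of all genes had a gene-end summit.

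Tgfbr1 and Ski were the pathway genes listed in both fractions. Ski encodes a repressor that binds SMADs and blocks their activity. Both were listed in CD93+ replicate 2 and in both CD93- libraries, a pattern that 2.78% of all genes shared. Neither was listed in CD93+ replicate 1. No pathway gene had a gene-end summit in a CD93+ library alone, as was so for all but 0.0137% of all genes.

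At Tgfbr1 (gene ID 21812, chromosome 4, 47353222 to 47414926), the summit scored 8.38 in CD93+ replicate 2, and 70.8 and 10.00 in CD93- replicates 1 and 2. It lay 49 bp before the annotated start in CD93+ replicate 2, and 80 and 114 bp before it in CD93- replicates 1 and 2. All 3 summits fell inside the Tgfbr1 sequence shown above and within 65 bp of each other. Within its own list the site stood at percentile 52.7 in CD93+ replicate 2, and at 96.2 and 51.7 in CD93- replicates 1 and 2. It was thus among the strongest sites of CD93- replicate 1 and near the middle of the other lists. An end of Gm32435, a gene not annotated as protein-coding, lies within 1000 bp of the same summits. The site can therefore not be assigned to either gene alone.

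At Ski (gene ID 20481, chromosome 4, 155154075 to 155222535), the summit scored 8.46 in CD93+ replicate 2, and 71.5 and 13.2 in CD93- replicates 1 and 2. The site lay upstream of the start by 751 bp in CD93+ replicate 2, and by 769 and 790 bp in CD93- replicates 1 and 2. All positions agreed to within 39 bp. Its percentile was 53.4 in CD93+ replicate 2, and 96.3 and 73.8 in CD93- replicates 1 and 2. The Ski summits were therefore the gene-end summits farthest from their gene in the set, and a window of 500 bp would leave them out. A further summit, of score 10.9 in CD93- replicate 1, lay inside Ski at 21463 bp from its start.

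With both CD93- lists as long as that of CD93+ replicate 2, Tgfbr1 and Ski were the pathway genes that stayed. Reduced to the length of the CD93+ replicate 2 list by score, CD93- replicate 1 held gene-end sites of Tgfbr1 and Ski, and CD93- replicate 2 held none of the 34 genes. This compares with 2 genes in the full list of CD93+ replicate 2, and with 3.28% and 3.38% of all genes in the reduced CD93- lists. Ski missed the reduced list of CD93- replicate 2 narrowly, with its score of 13.2 against 13.3 for the last summit kept and a rank of 720.

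**Figure D3:**
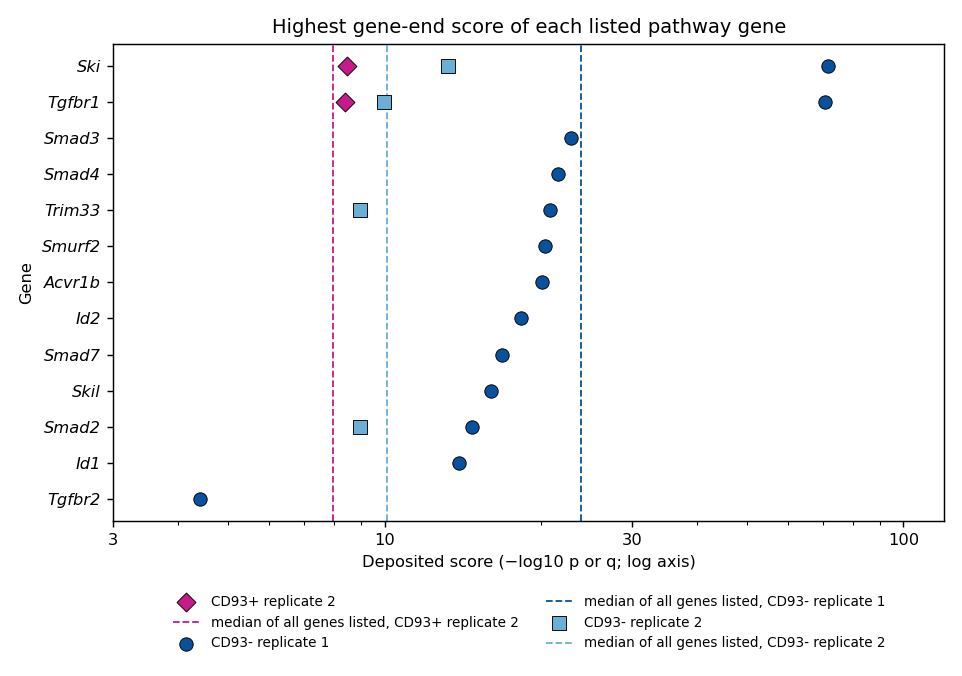
Each point is the highest gene-end score (log axis) of a pathway gene in a library, and dashed lines are the medians over all protein-coding genes with a gene-end summit in that library. In CD93- replicate 1, Ski and Tgfbr1 lie right of the dashed line at 23.9 and the other 11 genes lie left of it.

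Smad2 and Trim33 were listed in both CD93- libraries and in neither CD93+ library. SMAD2 is a receptor-activated SMAD of the TGF-beta branch, and TRIM33 is a ubiquitin ligase that acts on SMAD4 and also binds phosphorylated SMAD2 and SMAD3. At Smad2 (gene ID 17126, chromosome 18), the summit scored 14.7 and 8.95 in CD93- replicates 1 and 2. It lay inside the gene, 329 and 340 bp from its nearest end, with 11 bp between the libraries. At Trim33 (gene ID 94093, chromosome 3, 103279293 to 103358770), the scores were 20.8 and 8.98 in CD93- replicates 1 and 2. These summits lay inside the gene, 430 and 305 bp from its nearest end and 125 bp apart. In each CD93- list, both genes ranked near or below the middle, at percentiles of 33.98 and 42.5 for Smad2 and of 50.7 and 43.0 for Trim33 in replicates 1 and 2. In all, 4 of 34 pathway genes were listed at gene ends in both CD93- libraries, against 12.7% of all genes. Of all genes, 2.78% were listed in both CD93- libraries and also in CD93+ replicate 2. Most genes listed in both CD93- libraries were thus not listed in CD93+ replicate 2, as was so for Smad2 and Trim33.

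The other 9 genes with a gene-end summit were listed in CD93- replicate 1 alone, against 19.4% of all genes in that pattern with respect to the CD93- libraries. They were Acvr1b, Tgfbr2, Smad3, Smad4, Smad7, Smurf2, Skil, Id1 and Id2. Smad3, the partner of Smad2 in the TGF-beta branch, had the highest score of these, at 22.9. Smad4, the common SMAD, followed with 21.5, Smurf2 with 20.4, Acvr1b with 20.1 and Id2 with 18.3. Smad7, an inhibitory SMAD, Skil, a relative of Ski, and Id1 scored between 13.9 and 16.8. Tgfbr2, the type II receptor of TGF-beta, was weakest, with a score of 4.42 at percentile 1.20 of the list. Ends of genes not annotated as protein-coding lay within 1000 bp of the summits at Tgfbr2, Smad4 and Smad7.

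Scores at the pathway genes were mostly below those of other listed genes in CD93- replicate 1. The median score was 20.1 over the 13 genes, against 23.9 over all 7042 listed genes, and 2 of the 13 lay at or above that value. After Ski and Tgfbr1, at ranks 299 and 308 of 7989, the next pathway gene stood at rank 3594. With this list reduced to its 2755 highest-scoring summits, Ski and Tgfbr1 alone were left of 34 genes, against 12.9% of all genes. The full list of CD93- replicate 2, of the same length, held 4 of them. This setting was chosen after seeing the data. In CD93+ replicate 2, both listed pathway genes scored above the 7.95 that was the median over its 704 listed genes, and 1 of 4 did so in CD93- replicate 2, where that median was 10.1.

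By role, ligands had no gene-end summit in any list, as was so for 67.6% of all genes. Tgfb1, Tgfb2 and Tgfb3 encode the TGF-beta ligands and Ltbp1 a protein that stores them in the matrix, and all 4 lacked one. Tgfb1 had a site of score 9.46 inside the gene, 2418 bp after its start, in CD93- replicate 1. It also had sites 6121 and 6253 bp upstream in CD93- replicates 1 and 2, with scores of 36.1 and 12.1, but these lay at an end of its neighbour B9d2. No summit lay within 10000 bp of Tgfb2, Tgfb3 or Ltbp1 in any list. In CD93- replicate 1 the nearest was 505767 bp from Tgfb2, 162748 bp from Tgfb3 and 159432 bp from Ltbp1.

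Of the 9 type I and type II receptors, 1 was listed at a gene end in CD93+ replicate 2, against 3 in CD93- replicate 1 and 1 in CD93- replicate 2. The same rule called 3.22% of all genes in CD93+ replicate 2, and 32.2% and 12.9% in CD93- replicates 1 and 2, so that the receptor counts in the CD93- lists were close to those shares. The co-receptors were not listed at gene ends. Eng (endoglin), a co-receptor also found on endothelium, had a summit of score 7.45 in CD93- replicate 1, 8666 bp upstream of its start. Tgfbr3 (betaglycan) had none within 10000 bp, and the nearest in that list was 14021 bp away. Acvr2b, a type II receptor of activins and BMPs, had a summit 2738 bp beyond the gene in CD93- replicate 1, at an end of its neighbour Exog.

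The genes were also set out by signalling branch, a split made from textbook roles after the values had been seen, which carries no test. Genes that serve both branches were kept apart from it: the type II receptor genes Acvr2a and Acvr2b, whose products bind activins and BMPs, and Smad4. Of these 3, Smad4 was listed at a gene end in CD93- replicate 1, and Acvr2a and Acvr2b were not listed at a gene end in any library. The 5 genes assigned to TGF-beta or activin alone, Tgfbr1, Acvr1b, Tgfbr2, Smad2 and Smad3, each had a gene-end summit in CD93- replicate 1, where 32.2% of all genes did. With Acvr2a and Acvr2b counted among them, not all would have been listed. Tgfbr2 was listed with a score of 4.42 only, below the score minimum of 5. With this list reduced to its 2755 highest-scoring summits, Tgfbr1 alone of the 5 was left. In CD93+ replicate 2, 1 of the 5 was listed, against 3.22% of all genes, and 2 in CD93- replicate 2, against 12.9%. The 7 genes of the BMP branch were Acvr1, Bmpr1a, Bmpr1b and Bmpr2, which encode receptors, and Smad1, Smad5 and Smad9, and 0 of 7 had a gene-end summit in any list. In CD93- replicate 1 the summit nearest to each gene lay 34902 bp from Bmpr2, 43396 bp from Smad1, 100532 bp from Bmpr1a and 226066 bp from Bmpr1b. It was 567425 bp from Smad5 and 1208088 bp from Acvr1. Smad9 had summits 6187 and 6104 bp beyond its 3′ end in CD93- replicates 1 and 2, with scores of 33.96 and 5.87, at an end of the neighbouring gene Rfxap. With 67.6% of all genes lacking a gene-end summit in every list, and 21 of 34 pathway genes, an unlisted gene is not shown to be closed.

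Among the remaining SMADs, Smad6 fell just outside the gene-end window. Smad6 and Smad7 encode inhibitory SMADs, and the Smad6 summit, of score 9.16 in CD93- replicate 1, lay 1073 bp outside the gene. The nearest values inside the window were those of Ski, at 751 to 790 bp. Counting all 8 SMADs, gene-end summits numbered 0 in both CD93+ libraries, and 4 and 1 in CD93- replicates 1 and 2. Of all genes, 0.0183% and 3.22% were called in CD93+ replicates 1 and 2, and 32.2% and 12.9% in CD93- replicates 1 and 2.

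Of the pairs of close relatives among the regulators, Smurf1 and Smurf2 differed in being listed, while Ski and Skil were both listed and Tgif1 and Tgif2 both were not. Smurf2 was listed at its start and Smurf1 was not, the nearest summit to Smurf1 being 107959 bp away in CD93- replicate 1. Tgif1 and Tgif2 encode homeodomain repressors. Tgif2 had a summit of score 88.8 in CD93- replicate 1, the highest in the windows of the 34 genes, but it lay 7444 bp beyond the gene at an end of Rab5if. Zfyve9 (SARA), an anchor that presents SMAD2 and SMAD3 to the receptor, had none within 10000 bp. Of the 8 ubiquitin ligases, repressors and adaptor, 1 was listed in CD93+ replicate 2, against 4 and 2 in CD93- replicates 1 and 2. The shares of all genes called were 3.22% in CD93+ replicate 2, and 32.2% and 12.9% in CD93- replicates 1 and 2.

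The target genes Id1 and Id2 were listed at their starts or ends in CD93- replicate 1, with scores of 13.9 and 18.3, and Id3 was not listed. Of all genes, 32.2% had a gene-end summit in CD93- replicate 1. The Id1 summit lay 7 bp outside the gene, and another of score 10.9 lay 4378 bp away from it. The Id2 summit lay 79 bp upstream of the annotated start. For Id3 the nearest summit in that list was 32454 bp away.

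The wider window, the gene body with 10000 bp on either side, added few sites of the pathway genes' own. It held a summit at 0 and 2 of 34 genes in CD93+ replicates 1 and 2, against 0.0411% and 4.62% of all genes. In CD93- replicates 1 and 2 it held 19 and 6 of 34, against 43.5% and 18.5% of all genes. Of the 6 genes it added in CD93- replicate 1, 3 had summits only at an end of another protein-coding gene (Smad9, Acvr2b and Tgif2). The same was true of both genes added in CD93- replicate 2. Per length of window, summits were less dense at pathway genes than at all genes, with 0.584 against 0.695 per Mb in CD93+ replicate 2. The densities were 6.42 against 8.19 per Mb in CD93- replicate 1 and 1.75 against 2.97 per Mb in CD93- replicate 2. The windows of the 34 genes covered 3.43 Mb and those of all 21887 genes 1488 Mb, so pathway windows were longer on average. Counted per gene, pathway shares were above those of all genes in CD93+ replicate 2 (5.88%) and CD93- replicate 1 (55.9%). The share was below in CD93- replicate 2 (17.6%). A part of window length in the densities was not tested. In all, 15 of 34 pathway genes had no summit in this window in any list, against 56.3% of all genes.

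Where an annotated start was at hand, the gene-end summits lay at starts and not at 3′ ends. The table of start windows held 26 of the 34 genes, and Tgfb3, Tgfbr3, Smad2, Smad4, Smad7, Trim33, Skil and Id1 were not in it. All 7 listed genes with a start, namely Tgfbr1, Acvr1b, Tgfbr2, Smad3, Smurf2, Ski and Id2, had their summit within 1000 bp of it. The matching share of all listed genes is not given, so this is not shown to be particular to the pathway genes. By this start-only rule, 0 and 2 of 26 genes were listed in CD93+ replicates 1 and 2, against 0.0172% and 3.6% of 17492 genes. The counts were 7 and 2 of 26 in CD93- replicates 1 and 2, against 34.9% and 14.1% of genes. Distances ran between 790 bp upstream, at Ski, and 239 bp downstream, at Tgfbr2, with Smurf2 closest at 7 bp upstream.

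**Figure D4:**
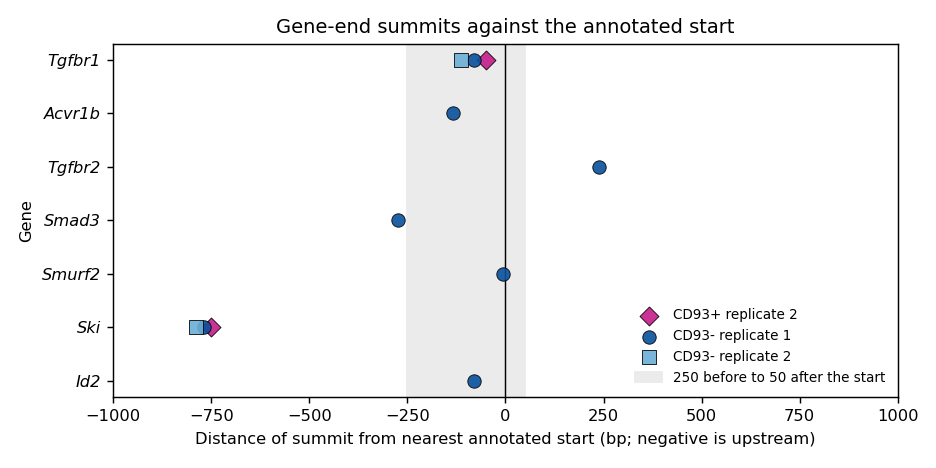
The x axis gives the distance of each gene-end summit from the nearest annotated start in bp, negative upstream, and the rows are the 7 listed genes that have one. Colours and shapes mark libraries, and the shaded band is the stretch of the printed sequences. The 3 summits of Tgfbr1 sit within the band and the 3 of Ski sit together at 751 to 790 bp upstream.

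The start sequences of listed and unlisted pathway genes had similar medians of base composition. Over the 300 bases, the median G+C content was 67.7% in the 7 listed genes and 66.0% in the 19 unlisted ones, against 56.3% in all genes with a window. The median number of CpG dinucleotides was 25 in the listed genes and 27 in the unlisted ones, against 13 over all genes. The Bmpr1a sequence above, with 79.3% G+C and 48 CpG, resembled that of Acvr1b, with 79.7% and 51, yet only Acvr1b was listed. Id2 and Id3 had 63.3% and 60.0% G+C.

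Motifs were searched by their letters on both strands of these windows. The GC-rich element linked to BMP-SMAD binding (GGCGCC) was found in all 4 member windows that held a summit of CD93- replicate 1, those of Tgfbr1, Acvr1b, Smurf2 and Id2. It occurred in 10 of all 36 member windows, in 15.3% of 21263 protein-coding windows and in 25.4% of the 5080 that held a summit of that library. The Bmpr1a window held it too. The GC box (GGGCGG), the core bound by SP1-type factors, was in the same 4 windows and in 23 of 36, against 46.2% of all windows and 78.1% of those with a summit. Smurf2 had 9 matches to the GC box, some of them overlapping. The short SMAD box (CAGAC) was in 1 of the 4, that of Smurf2, and in 17 of 36, against 48.4% of all windows and 44.5% of those with a summit. CCAAT was found in 2 of the 4, Tgfbr1 and Id2, with 3 matches at Id2, against 46.1% of windows with a summit. The SMAD palindrome (GTCTAGAC), the CRE (TGACGTCA) and the ETS core (CCGGAAG) were in none of the 4, and occurred in 0.236%, 4.80% and 25.9% of windows with a summit. The NRF1 motif was in the windows of Acvr1b and Smurf2, and the E-box (CACGTG) in that of Acvr1b, against 16.2% and 12.4%. A match describes letters and not binding, and motifs can overlap, as capitals that run together show.

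Further genes of the pathway were taken from a list of 53 chosen by role. Gene-end summits were found at 0 and 3 of 53 in CD93+ replicates 1 and 2, and at 23 and 9 of 53 in CD93- replicates 1 and 2. As shares these were 0% and 5.66% in the CD93+ libraries and 43.4% and 17.0% in the CD93- ones. Of all genes, the gene-end rule called 0.0183% and 3.22% in the CD93+ libraries, and 32.2% and 12.9% in the CD93- ones. The 7 further ligands, among them Bmp2, Bmp4 and Inhba, and the 2 further receptors had none in any list, as was so for 67.6% of all genes. Of 21 partners of receptors and SMADs, 1 was listed in CD93+ replicate 2, and 16 and 6 in CD93- replicates 1 and 2. Ep300, which encodes the coactivator p300, was among them. Of 5 antagonists, Bambi alone was listed, and of 8 genes of ligand activation, Nrros alone, a gene named here after its value was seen. The share of 67.6% of all genes without a gene-end summit stands beside these absences too.

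The genes of this list seen in CD93+ replicate 2 were Bambi, a decoy receptor, Wwp1, a ubiquitin ligase, and Klf10, a TGF-beta-induced zinc finger factor. Bambi scored 8.78 in CD93+ replicate 2 and 29.5 in CD93- replicate 1, and was not listed in CD93- replicate 2. Wwp1 scored 8.78 in CD93+ replicate 2, and 46.2 and 4.35 in CD93- replicates 1 and 2. For Klf10 the scores were 7.45 in CD93+ replicate 2, and 34.5 and 9.12 in CD93- replicates 1 and 2. All 3 had sites in CD93- replicate 1 as well.

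Of 10 quiescence targets, 0 and 1 were listed in CD93+ replicates 1 and 2, and 5 and 3 in CD93- replicates 1 and 2. All genes were called at 0.0183% and 3.22% in CD93+ replicates 1 and 2, and at 32.2% and 12.9% in CD93- replicates 1 and 2. Among the cell-cycle inhibitor genes, Cdkn2d (p19) scored 73.1 and 19.6 in CD93- replicates 1 and 2, and Cdkn1b (p27) scored 30.3 and 10.5. Neither was listed in a CD93+ library. Cdkn2b, a further inhibitor gene of this list, scored 9.17 in CD93- replicate 1 and was listed in no other library. Cdkn1a and Cdkn1c, the inhibitors p21 and p57, had no gene-end summit in any list, as was so for 67.6% of all genes. Cdkn2b, Cdkn1a and Cdkn1c were named for their role after their values were seen. Strap, an adaptor of the receptor complex, scored 59.5 and 15.7 in CD93- replicates 1 and 2. Ep300, Usp15, E2f5 and Tab1 were also listed in both CD93- libraries, with scores of 5.33 to 6.89 in replicate 2.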

How the data were processed

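The tools named in the submitters' processing notes are Bowtie2 (an aligner) and MACS2 (a peak caller), with build mm10. Their versions, read filtering, Tn5 shift and threshold were not given in the sources used here. Per library, the authors deposited 1 list of 1-bp summits, not pooled, with a score taken as −log10 of a p or q value (which of them is not stated). Depth is unknown. Genes were placed by a RefSeq table (GRCm38.p6), which has no exons, and starts and strands came from its table of start windows.

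Groups and replicate numbers follow the sample titles. Deposited summit names carry other replicate numbers in 3 of the 4 lists. Scripts ran in Python 3.11.15 (pandas 2.3.3, numpy 2.4.6, matplotlib 3.10.9). The highest-scoring summit within 1000 bp of either gene end, and any summit in the gene body or 10000 bp either side, were taken per list. The window search was tested on simulated summits. The 34 genes, the further lists and the motifs were chosen with earlier results of these data known, so lists are described by counts beside all genes, without a test. Full values are printed for genes listed at an end in CD93+ cells or in both CD93- libraries. The sequences printed and lists cut to the length of CD93- replicate 2 were chosen after seeing the data. Alternatives were other windows, score minimums of 5 and 10, cuts of the longer lists, starts only, other sharing distances and leaving out each library. No list of artefact-prone regions was used here.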

Additional observations from a re-analysis of the deposited data

How the results depend on the processing

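Most of the 61 alternative values were counts, which have no direction to reverse. The difference between groups stayed negative in its alternatives, except with the longer lists cut to the length of CD93+ replicate 2. It was 0 there, with CD93+ replicate 1 still at its 21 summits. Counts that moved by over 1.5 times are given here. With lists reduced to the length of CD93+ replicate 2, gene-end counts in CD93- replicates 1 and 2 were 2 and 0, wide-window counts 3 and 0, and the difference between groups was 0. At the length of CD93- replicate 2, CD93- replicate 1 had 2. With starts only, which leaves 26 genes, CD93- replicates 1 and 2 had 7 and 2. With a score of at least 10, gene-end counts were 0 in CD93+ replicate 2 and 1 in CD93- replicate 2, and wide-window counts 0 and 2. A 500 bp window left 1 gene in CD93+ replicate 2. The gene body with 0 bp either side gave 0 in CD93+ replicate 2, and 7 and 2 in CD93- replicates 1 and 2. With 50000 bp either side, CD93+ replicate 2 had 5. Leaving out each library gave differences between -12 and -3 genes, against -7.5 with all 4. The value was -3 without CD93- replicate 1 and -12 without CD93- replicate 2, both over 1.5 times away from -7.5. Other sharing distances left Tgfbr1 and Ski shared. The causes were not tested, beyond the smaller numbers of summits or genes that these settings leave by construction. Taken within replicate numbers (replicate block), with no test, the differences were -13 and -2 genes, with a mean of -7.5. Nothing in the labels says that these numbers pair the libraries. Unknown depth and the short CD93+ lists limit every absence.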
